A study of Mus musculus with 18 samples.

Results

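Alternative 5′ splice site variations are places where 1 exon can end at different 5′ sites while joining the same next exon. They were taken from the authors' 4 deposited splicing tables by 3 criteria: the table's flag for an alternative 5′ site was true, its flags for exon skipping and for an alternative 3′ site were false, and the variation had no intron part. The criteria used no value of how much a site was used or changed. Which variations a table lists can still depend on the reads, and the lists differed between the tables. The criteria found 2032 variations in 1547 genes, among 128636 splicing variations listed in the 4 tables together. A table held 1928 of them for PCBP1 knockdown at Day 0, 1984 for PCBP2 knockdown at Day 0, 851 for PCBP1 knockdown at Day 2 and 803 for PCBP2 knockdown at Day 2, and 736 were in all 4 tables. Of the 1547 genes, 1206 had 1 variation and 341 had more, with up to 7 in Dennd4b and Zzef1, so some members share a gene.

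The cells were primary hematopoietic progenitors enriched from E14.5 fetal liver of the mouse strain CD-1. All 18 libraries came from cells infected with an MSCV-PIG retrovirus carrying a short hairpin RNA (shRNA): scrambled or Luciferase hairpins in the controls, and hairpins against Pcbp1 or Pcbp2 in the knockdowns. Day 0 cells were taken when the expansion phase ended, and Day 2 cells after another 2 days in erythroid differentiation medium with erythropoietin. Each of the 6 groups (control, PCBP1 knockdown and PCBP2 knockdown on both days) had 3 libraries. The knockdown replicates were 3 different hairpins (SH1, SH3 and SH4), and the controls were 1 Luciferase hairpin (LUC-1) beside the scrambled SCR-1 and SCR-2. Nothing in the labels tells if libraries came from separate cultures or litters. The p-values then measure the spread between these libraries. That spread may be technical, and in the knockdown groups it includes differences between hairpins.

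A 5′ splice site is the exon-intron boundary that U1 snRNP recognizes by base pairing, and the intron begins with GT in nearly all cases and with GC in a small minority. Where sites lie close together, U1, U6 and the SR and hnRNP proteins bound near the exon end influence which one is used. PCBP1 and PCBP2 are KH-domain proteins that bind C-rich RNA and are known both as regulators of splicing and as stabilizers of erythroid mRNAs such as alpha-globin.

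The sequences below show the exon ends at which the authors' tables list the larger changes described later, so that the competing sites can be seen. They were read 5′ to 3′ on the gene's strand from the GENCODE M21 transcripts (GRCm38). The 15 exon bases before the upstream site are in lower case, and capitals mark bases after it that become exon when the downstream site is used. For coding stretches up to the downstream site, all bases between the sites are given; elsewhere the capitals hold the first 15 bases after the upstream site. Ccdc18 lies on the plus strand at chr5:108132984-108133013, Zbtb33 on the plus strand at chrX:38189894-38189923, the Cdk2ap2 variation with 226 bases between its sites on the plus strand at chr19:4097493-4097522, and Pde4a on the plus strand at chr9:21191504-21191533. The coding stretches are in Tmem170 (minus strand, chr8:111869588-111869671), Serac1 (minus strand, chr17:6045645-6045738), Vps13d (minus strand, chr4:145163176-145163203), Clasrp (minus strand, chr7:19584780-19584798) and Kmt2d (minus strand, chr15:98856069-98856092).
Ccdc18: cctgcgatctgggtgGTGAGCAAACGCCTC
Zbtb33: gccgccgcggagcagGTGAGGAGTGGGCTG
Cdk2ap2: ccccggtccctacagGTGAGGCTCCAACTC
Pde4a: cgtcgccagcgaagcGTGAGCACACCCTGC
Tmem170: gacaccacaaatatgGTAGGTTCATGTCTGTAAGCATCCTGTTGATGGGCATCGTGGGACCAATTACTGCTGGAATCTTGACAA
Serac1: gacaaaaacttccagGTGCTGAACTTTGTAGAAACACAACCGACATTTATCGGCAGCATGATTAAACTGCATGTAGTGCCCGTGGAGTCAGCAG
Vps13d: ttctacaagggaaagGTTCATACCTCAG
Clasrp: acaggagctgccaaaGTCA
Kmt2d: gacagcccgacgaggGTGAGACGG
In each of these exon ends the capitals begin with GT. The 69 bases in Tmem170 and the 9 in Kmt2d are multiples of 3, while the 79 in Serac1, the 13 in Vps13d and the 4 in Clasrp are not.

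Most variations had 2 sites (1697), while 274 had 3, 44 had 4 and 17 had 5 or more. Distances below are between the 2 leading sites, those with the highest mean use. The upstream of them was the more used in 1011 variations and the downstream in 1021. Against the GENCODE M21 annotation, both leading junctions were annotated in 204 variations, 1 of them in 1825 and neither in 3. Where 1 was annotated, it was the more used site in 1823 of 1825.

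The second site was mostly rare. By the authors' deposited table, percent spliced in (PSI, the share of a variation's splicing that uses a junction) of the less used sites together had a median of 1.1% over the members, as the mean over the groups that list them. It was 10% or more in 115 variations (5.66%), 5% or more in 261 (12.8%) and 2% or more in 648 (31.9%). The median was 4.3% where both sites were annotated and 1% where 1 was, and 58 of the 115 variations at 10% or more had both sites annotated. The values of the authors' deposited tables are 1 for each pooled group of 3 libraries, with no error and no read depth, so the counting error behind a low PSI is unknown.

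The distance between the sites ranged from 1 to 3206 bases, with a median of 30 and quartiles of 4 and 109. A pair of spacings stood out in number (the left panel of the spacing plot): 279 variations (13.7%) had sites 1 base apart and 175 (8.61%) had sites 4 bases apart, against 61 at 2 bases, 38 at 3, 66 at 5 and 35 at 6. None of the 204 variations with both sites annotated had the 1-base spacing, and 13 of them (6.37%) had the 4-base spacing. Their median distance was longer, 51.5 bases.

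**Figure D1:**
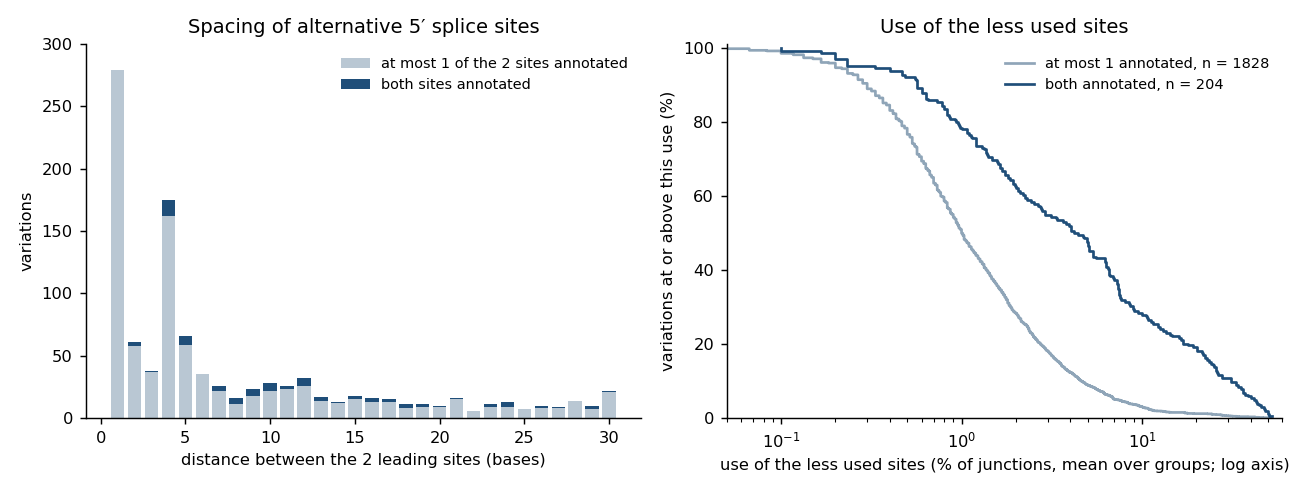
Left, number of variations by the distance between the 2 leading 5′ sites (1 to 30 bases), with variations whose sites are both annotated in dark blue; the bars at 1 base (279) and 4 bases (175) are the tallest. Right, percent of variations at or above a given use of the less used sites (PSI in percent, mean over groups, log axis), where the curve for 204 variations with both sites annotated lies to the right of that for the 1828 others.

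At the 1-base spacing, the downstream site was the more used in 278 of 279 variations and none had both sites annotated. The base between the sites, the last exon base of the downstream site, was G in 158 (56.6%) and A in 94 (33.7%) of 279, compared with G in 650 (77.7%) and A in 94 (11.2%) of 837 other annotated downstream sites. The less used site had a median PSI of 1.17% and reached 5% or more in 36 of these variations by the authors' deposited table. In Nme7, a gene of the nucleoside diphosphate kinase family, the table gave the upstream site 25% in Day 0 control, 28.5% with PCBP1 knockdown and 30.1% with PCBP2 knockdown, and in Invs, which encodes the ciliary protein inversin, 13.9%, 17.5% and 20.5%; both were chosen after their values were seen. A site 1 base before a GT cannot itself read GT or GC, since the second base after it is that G. Of 28 such upstream sites whose next 2 bases could be read in a transcript, 0 read GT and 0 read GC. Both counts of 0 were fixed by the spacing.

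At the 4-base spacing, the 4 bases between the sites could be read in 97 variations with an annotated downstream site. They began with GC in 55 (56.7%) and with GT in 38 (39.2%). A start with GC or GT comes close to being fixed, since the segment begins at a listed 5′ site; of 561 readable unannotated upstream sites at spacings other than 1 and 4 bases, 8.91% began with GC and 84.3% with GT. GCAG alone made up 36 of the 97 (37.1%) and GTAG 15 (15.5%). In 668 annotated exon ends of longer variations, which need not hold a 5′ site at that place, the last 4 bases read GCAG in 5.99% and GTAG in 0.449%; matches were read on the gene's strand only, and GCAG and GTAG cannot overlap each other at the same 4 bases. Over all 102 readable 4-base segments, those beginning with GC had a median use of the less used site of 0.833% with 2 of 57 at 5% or more, and those beginning with GT had 1.93% with 12 of 41 at 5% or more. In Clasrp, where the 4 bases are GTCA, the less used site was the downstream one, at a mean of 12.6%, and in the noncoding RNA Pvt1, where they are GTAG, the less used site was at 22.4%.

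Over all spacings, the first 2 intron bases could be read for 308 upstream sites in the annotation, of which 295 (95.8%) were GT and 10 (3.25%) GC. Of 673 readable upstream sites outside the annotation, 498 (74%) read GT and 105 (15.6%) GC, given as a description with no test. Downstream sites read GT in 179 of 180 annotated and 96 of 103 unannotated cases. Readable sites are those inside an annotated exon of another transcript, so they are no sample of all sites.

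By the annotation, the stretch between the sites was coding in 991 variations, not exonic in 817, in a noncoding transcript in 117, in a 5′ UTR in 48, across a start or stop codon in 45 and in a 3′ UTR in 14. Among the 111 coding stretches with both sites annotated, 48 (43.2%) were a multiple of 3, compared with 75 of the 204 with both sites annotated (36.8%) and 586 of all 2032 distances (28.8%). The less used sites of these 48 had a median PSI of 4.42%, with 16 at 10% or more, and those of the other 63 had 2.53%, with 11 at 10% or more, by the authors' deposited table. In 52 variations 1 site was found only in transcripts annotated for nonsense-mediated decay, and the other site in protein-coding ones. That site had a median PSI of 2.45%; it was at 10% or more in 7 and at 50% or more in 0 of the 52.

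Fewer of these variations were listed in the Day 2 tables. Of 2002 found at Day 0, 864 (43.2%) were also listed at Day 2, while 69% of all 122822 Day 0 variations were, and 30 were found only at Day 2. All 1138 that were missing at Day 2 had no variation of the same name there. In the libraries of Day 2, 7 erythroid marker genes took between 35.5% and 61.7% of the counts, against 0.195% to 0.309% at Day 0. Between the days in control, 1143 of 1537 host genes tested fell. The median log2 change was -1.46 over the host genes and -0.05 over all genes. The share of all genes that fell is not given here. The part of the markers and of the host gene levels in the shorter lists was not tested. In such bulk samples fewer cells of a type and less RNA per cell cannot be told apart.

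The targeted genes were lower in every knockdown library. Pcbp1 was at 185.6, 197.3 and 205.7 counts scaled to a common library size (CPM) in Day 0 control and at 14.2, 59.4 and 24.3 with its hairpins SH1, SH3 and SH4, and at Day 2 it was at 241.5, 280.7 and 283.6 against 15.7, 57.2 and 40.4. Pcbp2 was at 281.8, 285.3 and 298.6 CPM in Day 0 control and at 71.0, 70.3 and 73.5 with its hairpins, and at Day 2 at 229.1, 224.7 and 247.2 against 39.5, 37.0 and 48.0. The Pcbp1 hairpin SH3 left the most Pcbp1 on both days. Estimated reads per library ranged from 27033440 to 54096339. The erythroid marker genes took 44.6% to 61.7% of counts in Day 2 control, 35.5% to 37.6% with PCBP1 knockdown and 36.3% to 44% with PCBP2 knockdown, and the 3 detected of 6 hepatocyte markers summed to at most 0.00118% in any library.

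Few alternative 5′ sites differed by much between knockdown and control. By the authors' deposited table, 0 of 1928 variations had a probability of at least 0.95 for a PSI change of 0.20 or more with PCBP1 knockdown at Day 0, where 0.0573% of all variations did. It was 0 of 1984 with PCBP2 knockdown at Day 0 (background 0.0115%), 0 of 851 with PCBP1 knockdown at Day 2 (0.191%) and 0 of 803 with PCBP2 knockdown at Day 2 (0.0718%). With backgrounds this low, counts of 0 are near the share over all variations and do not set these variations apart. At a probability of at least 0.50, the deposited tables gave 2 (0.104%), 2 (0.101%), 2 (0.235%) and 1 (0.125%) variations, where 0.276%, 0.142%, 0.873% and 0.541% of all variations reached it, and at 0.90 they gave 0 members in each. An expected change of 0.10 or more in any junction was listed for 4 (0.207%), 3 (0.151%), 3 (0.353%) and 4 (0.498%), while the backgrounds over all variations were 0.643%, 0.377%, 2.34% and 1.61%. The expected changes are in doubt, since those of both sites of a 2-site variation had the same sign in 210 of 272 at an expected change of 0.01 or more (PCBP1 knockdown, Day 0), which shares that sum to 1 cannot have. The probabilities are listed beside them for the same comparisons, and whether they share this fault was not tested. The 2 comparisons of a day share their control libraries.

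Most points lay on the diagonal when knockdown PSI was set against control PSI (the 4-panel scatter). By the authors' deposited tables the median absolute difference in PSI of the upstream site was 0.5 points with either knockdown at Day 0, 0.4 with PCBP1 knockdown and 0.5 with PCBP2 knockdown at Day 2, and the 95th percentiles were 6.7, 6.1, 6.3 and 7.38 points. Differences of 10 points or more were found in 47 of 1928, 37 of 1984, 18 of 851 and 19 of 803 variations. The share over all splicing variations is not given here, so whether these counts are typical is unknown. They were far above the 4, 3, 3 and 4 variations with an expected change of 0.10 or more. The upstream site was higher with knockdown in 20 of the 47, 20 of the 37, 9 of the 18 and 6 of the 19; the directions were mixed in each comparison. No test stands behind these differences, since the table has 1 value for a group.

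**Figure D2:**
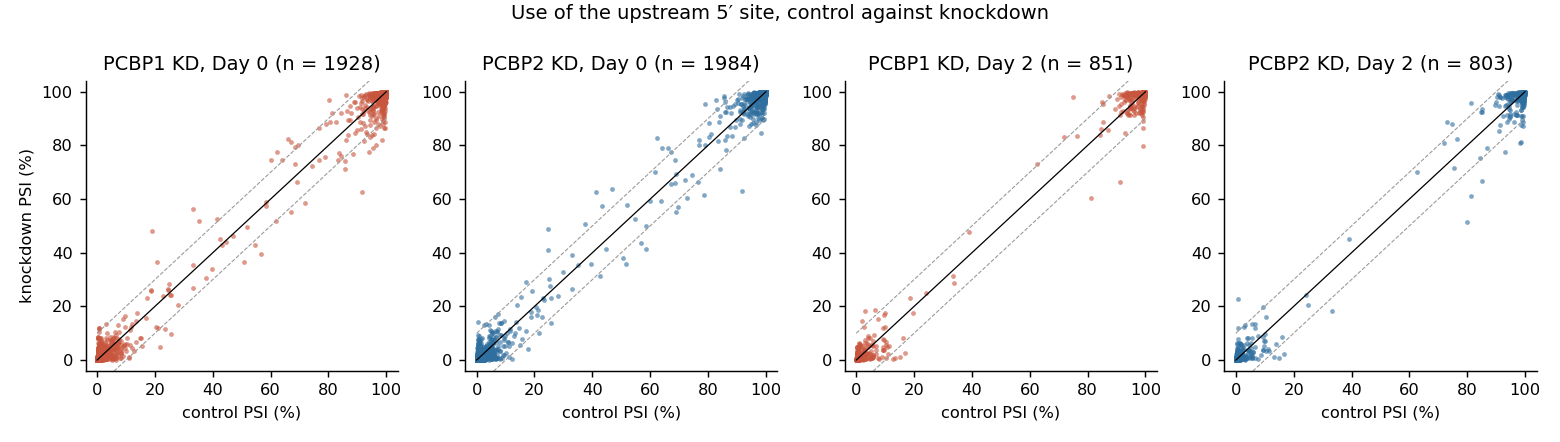
PSI of the upstream 5′ site (percent, the authors' deposited values) in control on the x axis and in knockdown on the y axis, 1 dot for each variation, with the line of equality and dashed lines 10 points to either side. Between 18 and 47 variations in a panel differ by 10 points or more.

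With PCBP1 knockdown at Day 0, Ccdc18, which encodes a coiled-coil protein, was listed with the highest probability of change, 0.751. Its upstream site had a PSI of 91.7% in control and 62.6% with knockdown in the authors' deposited table, the alternative being a site 341 bases further on that is annotated in a retained-intron transcript. In Tmem170, a transmembrane protein gene, the table had the unannotated upstream site, whose use removes the 69 bases (23 codons) printed above, at 19% and 48.2% (probability 0.746). The table gave the upstream site of Serac1, a gene of phosphatidylglycerol remodeling, 21.6% and 4.8% (probability 0.248). For the ribosomal protein gene Rpl14 the table gave 95.7% and 84.3% (376 bases apart), and for Nrbf2, of the autophagy lipid kinase complex, 66.1% and 82.3% (80 bases apart).

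With PCBP2 knockdown at Day 0, Ccdc18 again led the authors' deposited table, from 91.7% to 63% (probability 0.706) with the same control value. Zbtb33 encodes the methyl-CpG binding protein Kaiso; its sites lie 174 bases apart in the 5′ UTR, and the table had the upstream site at 24.5% in control and 48.7% with PCBP2 knockdown (probability 0.571), but at 26.2% with PCBP1 knockdown. In Clasrp, which encodes an SR-like protein that associates with the kinase CLK4, the upstream of the 2 sites 4 bases apart went from 79.1% to 95.3% (probability 0.29) in the table, and was at 87.9% with PCBP1 knockdown. The downstream Clasrp site is annotated only in a decay transcript. The other 3 chosen for this table were Dapk1, Zfp157 and a pair of coding Cdk2ap2 sites 10 bases apart. By the authors' deposited table, Dapk1, a death-associated kinase with 4 sites, went from 72% to 67% at its upstream leading site. Its downstream leading site went from 20.1% to 10.6%, and its largest expected change, 6.98 points, was at neither. By the same table, Zfp157, a zinc finger gene with 5 sites, went from 82.6% to 97.1%, and the Cdk2ap2 pair from 9% to 1.9%.

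With PCBP1 knockdown at Day 2, Taf2, a subunit of the general transcription factor TFIID, had the highest probability of change, 0.708. Its upstream site, 12 bases before an unannotated one, was at 91.2% in control and 66.2% with PCBP1 knockdown in the authors' deposited table, and at 87.5% with PCBP2 knockdown. The centriole gene Cep135 differed the other way in the table, from 74.9% to 97.9% (probability 0.69), but the same site had 97.8% in Day 0 control, so the Day 2 control was the low group. Mphosph6, an RNA exosome cofactor gene, went from 99% to 79.9% (sites 4 bases apart) in the table. Eno3, the muscle-type enolase, went from 81.3% to 60.4% (59 bases), and the table gave 61.1% with PCBP2 knockdown. Zcchc7, of a nuclear RNA surveillance complex, went from 3.1% to 18.2% (1 base), and Iqsec1, an exchange factor for ARF proteins, from 85% to 96.3% (140 bases), in the authors' deposited table. The Zcchc7 site was at 9.3% in Day 0 control and 12.9% with PCBP2 knockdown at Day 2. The Iqsec1 site was at 99.7% in Day 0 control and 92.5% with PCBP2 knockdown at Day 2. For both Zcchc7 and Iqsec1, too, the Day 2 control was the low group.

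With PCBP2 knockdown at Day 2, the highest probability was 0.518, for Vps13d, a lipid transfer protein gene. The authors' deposited table had its unannotated upstream site, 13 coding bases before the annotated one, at 22.6% against 0.9% in control and 4.4% with PCBP1 knockdown. In Lrrc56, a leucine-rich repeat gene, the table had the upstream site at 80% in control and 51.4% with knockdown (34 bases, probability 0.495). The table gave the upstream site of the dynactin subunit gene Dctn5, with 11 listed sites, 85.2% and 66.7%, that of Arap1, a GTPase-activating protein gene, 98.1% and 80.9%, and that of Yeats2, a histone reader, 98.7% and 81.2%. The wider Cdk2ap2 pair, 226 bases apart, went from 33.3% to 18.4% (probability 0.0967). Its host encodes a partner of the cell cycle kinase CDK2.

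**Figure D3:**
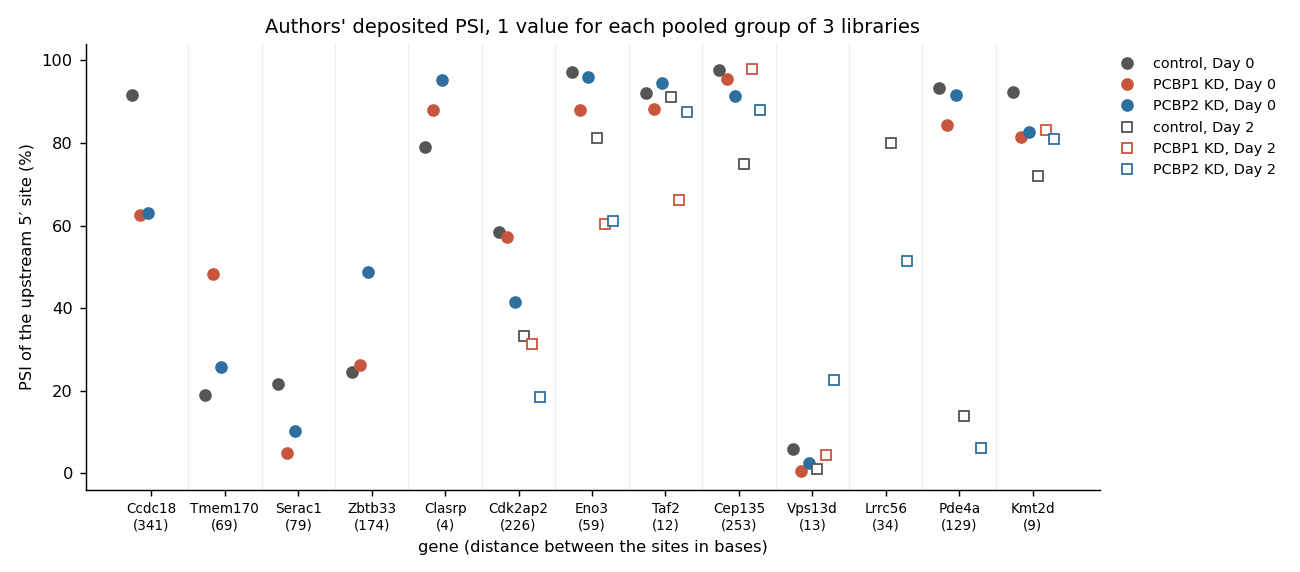
PSI of the upstream 5′ site (percent) for 13 named variations, 1 point for each pooled group, with Day 0 as filled circles and Day 2 as open squares; grey is control, red PCBP1 knockdown and blue PCBP2 knockdown. Ccdc18 has both knockdowns near 63% below its control at 91.7%, and Pde4a has its Day 2 points far below its Day 0 points.

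A measure with replicates was made from the authors' Salmon tables, which give TPM, a length-scaled transcript abundance, for each library: the share of a site is the TPM of annotated transcripts with its junction, over that of transcripts with any junction of the variation. At least 2 annotated sites were present in 222 of the 2032 variations, and 132 of them (151 junctions) passed the filter on low values and could be tested. It is a share of whole transcripts, and transcripts can differ elsewhere too. Across the upstream sites of 73 variations with 2 sites, the mean share in Day 0 control and the authors' deposited PSI had a Pearson correlation of 0.841 and a Spearman correlation of 0.775 with a median gap of 5.02 points, and across 23 in Day 2 control 0.765 and 0.719 with a gap of 12.1 points; the points share libraries and genes are not independent. Smarcc2, a subunit of the BAF remodeling complex, shows how far the measures can part, with a share of 45.4% ± 8.4 (SD, n = 3) and a PSI of 0.5% in Day 0 control.

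By this measure no alternative 5′ site passed limma's test for any knockdown. Called were 0 of 132 variations with PCBP1 knockdown at Day 0 (background over all 22832 junctions tested 0.403%), 0 with PCBP2 knockdown at Day 0 (0.00438%), 0 with PCBP1 knockdown at Day 2 (0.293%) and 0 with PCBP2 knockdown at Day 2 (0.0175%). For 132 variations these counts of 0 are near such low backgrounds and do not set the sites apart. At an unadjusted p under 0.05 there were 7, 14, 14 and 11 variations. By junction this was 5.3%, 9.93%, 9.27% and 7.28% of the 151 tested, beside 12.1%, 6.46%, 13.6% and 10.1% of all junctions. With a pseudocount proportional to each library's total, and only junctions with a total of at least 0.5 TPM in every library, limma called 0 of 80 with either knockdown at Day 0 (backgrounds 0.0998% and 0.00525%), 3 with PCBP1 knockdown at Day 2 (1.07%), which were Eps15, Ccdc18 and Clasp1, and 0 with PCBP2 knockdown at Day 2 (0.588%). The tests of whether a knockdown effect differed between the days called 0 variations for either protein, with smallest adjusted p-values of 0.265 and 0.768 by limma. They also called 0 of all 22832 junctions, so the 0 is not particular to these variations. At an unadjusted p under 0.05 there were 16 and 9 of 151 junctions, and the share of all junctions at that level is not given here.

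Cdk2ap2 was the variation with the smallest p for PCBP2 knockdown at Day 0. The upstream of its sites 226 bases apart had a transcript-based share of 73.5%, 64.4% and 65.6% in the Day 0 control libraries SCR-1, SCR-2 and LUC-1. The 3 PCBP2 knockdown libraries had 47.5%, 54.9% and 53.0%, all below every control library, and the 3 PCBP1 knockdown libraries had 63.3%, 69.9% and 66.9%. The log2 ratio of the sites was lower by 0.94 in the knockdown (log2 -0.94, SE 0.26), but limma's adjusted p was 0.334. At Day 2 the shares were 52.7% ± 9.6 in control and 49.1% ± 4.5 with PCBP2 knockdown (SD, n = 3 each), and the groups overlapped, with 45.8%, 48.7% and 63.6% against 50.8%, 52.5% and 44.0%. By the authors' deposited tables the same site was lower with PCBP2 knockdown on both days, 58.4% and 41.5% at Day 0 and 33.3% and 18.4% at Day 2, and near control with PCBP1 knockdown, 57.3% and 31.3%.

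The larger PSI differences were only partly seen in the transcript-based shares (the plot of shares by library). For Ccdc18 the shares in Day 0 control were 61.4%, 67.8% and 60.3%, and the PCBP1 knockdown libraries had 61.9%, 62.5% and 63.4% and the PCBP2 knockdown libraries 58.6%, 63.5% and 61.6%. These groups overlapped, while the PSI in the authors' deposited tables was lower than control by 29.1 and 28.7 points (differences of -29.1 and -28.7). For Zbtb33 the shares were 23.8%, 24.9% and 20.4% in Day 0 control and 20%, 27.9% and 16.1% with PCBP2 knockdown, again overlapping. For Serac1 the shares were 12.8%, 9.5% and 22.6% in control and 8.3%, 10.3% and 10.0% with PCBP1 knockdown, which overlapped. Among variations whose authors' PSI differed by 10 points or more and whose upstream share was tested, the share moved the same way in 8 of 16 with PCBP1 knockdown and 11 of 14 with PCBP2 knockdown at Day 0, and in 1 of 2 and 1 of 1 at Day 2.

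**Figure D4:**
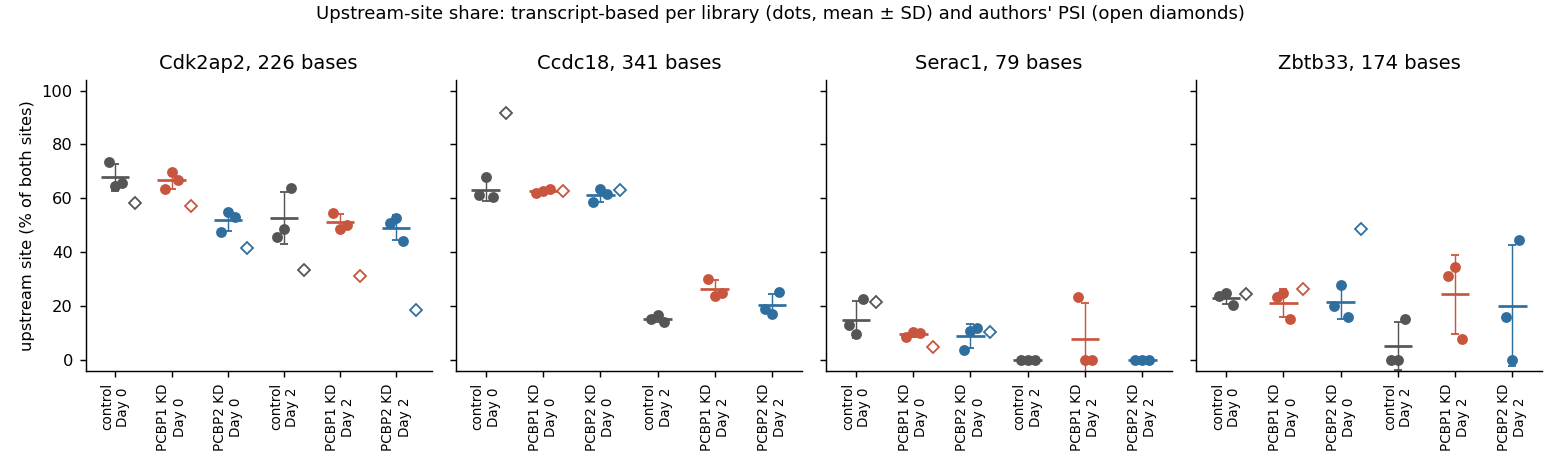
Share of the upstream site (percent) in Cdk2ap2, Ccdc18, Serac1 and Zbtb33 by group; dots are libraries, horizontal lines with bars the mean ± SD of 3, and open diamonds the authors' deposited PSI where listed. In Cdk2ap2 the 3 PCBP2 knockdown libraries of Day 0 lie below the 3 controls, and in Ccdc18 the Day 0 libraries of all groups lie between 58.6% and 67.8%.

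Of the variations with the smallest p at Day 2, chosen after their values were seen, Smarcc2 had its upstream coding site (342 bases before the other) at a transcript-based share of 36.0%, 40.5% and 27.3% in control. PCBP1 knockdown gave 60%, 46.8% and 64.0% and PCBP2 knockdown 54.4%, 64.4% and 65.3%, all above the controls, which the comparisons share. The log2 ratios were 1.10 (SE 0.31, adjusted p 0.122) and 1.30 (SE 0.31, adjusted p 0.145) by limma. Eps15, which encodes an endocytic adaptor, had its upstream site (108 bases, 98.7% by the authors' deposited PSI) at a transcript-based share of 85.7%, 80.9% and 78.2% in Day 2 control and 71.6%, 60.3% and 67.0% with PCBP1 knockdown. These did not overlap, and limma's adjusted p was 0.0827 with a log2 ratio of -0.96 (SE 0.23), or 0.0389 with the proportional pseudocount.

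Between the days in control, few sites differed much in PSI, and those that did differed in either direction. A control PSI on both days was listed in the authors' deposited tables for 864 variations; the median absolute difference was 0.6 points and the 95th percentile 6.78. A difference of 10 points or more was found in 24, with the upstream site higher at Day 2 in 8 and lower in 16, and 20 points or more in 6. The control groups of both days have no replicate values in the deposited tables, so no test stands behind these counts. Their share over all splicing variations is not given here, so whether they are typical is unknown.

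Pde4a, a cAMP phosphodiesterase, had the widest difference. The authors' deposited table had its upstream site at 93.4% in Day 0 control, 84.3% with PCBP1 knockdown and 91.7% with PCBP2 knockdown, and at 13.9% in Day 2 control and 6% with Day 2 PCBP2 knockdown. The alternative is an unannotated site 129 bases downstream, in a noncoding transcript, and Pde4a itself was at 17 CPM ± 1.7 in Day 0 control and 15.2 CPM ± 1.8 in Day 2 control (SD, n = 3 each). The other 7 chosen by size were RP24-194N4.4 (97.4% to 62.6%; listed as Gm28177 in the annotation, at 0.068 CPM in Day 0 and 0.79 CPM in Day 2 control), Cdk2ap2 at 226 bases (58.4% to 33.3%), Cep135 (97.8% to 74.9%), Med12, of the Mediator kinase module (98.4% to 76.5%), Kmt2d, a histone H3K4 methyltransferase (92.3% to 72%), Eno3 (97.2% to 81.3%) and Smarca2, the BRM ATPase (1.5% to 16.7%), all from Day 0 to Day 2 control by the authors' deposited tables. In 7 of these 8, Smarca2 being the exception, the upstream site was the lower at Day 2. Kmt2d has 9 bases (3 codons) between its leading sites, and the table gave 83.2% and 80.9% with the Day 2 knockdowns, both above the Day 2 control. The Smarca2 site was at 2.5% and 2.3% with the Day 2 knockdowns, so the Day 2 control was the high group.

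The transcript-based share called many more sites between the days, but this count depended on the pseudocount and the filter. With 0.5 TPM added, limma called 93 of 132 variations. Of these, 90 had a lower total at Day 2. In 47 the total was under 1 TPM in Day 2 control, where a fixed addition pulls the ratio of the sites toward 1. By junction, 53 of 151 were called higher and 50 lower at Day 2, beside 61.5% called of all junctions. A variation counts where any of its junctions was called, while the backgrounds here are by junction, so the 2 are not like for like. The median total of the tested variations was 11.5 TPM in Day 0 control and 1.22 TPM in Day 2 control. With junctions under 0.5 TPM in any library left out and the same 0.5 TPM added, limma called 49 of 80 (background 57.8%). With that filter and a pseudocount proportional to the total, it called 16 of 80 variations, a share below the background of 29.9% of junctions. The 8 with the smallest p in the first setting were Hps1, Abca2, Gpr89, Gpt2, Alg5, Zfp386, Rasal3 and Ccdc18, and of these Hps1, Abca2, Gpr89, Gpt2 and Zfp386 were under 0.5 TPM in total in Day 2 control. In Gpr89, a Golgi pH regulator gene, the upstream share was 96.7%, 98.3% and 97.7% at Day 0 and 93.9%, 100% and 100% at Day 2, although its log2 ratio was -3.31.

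Called in both settings and in the same direction were 12 variations, 6 with a higher and 6 with a lower upstream share at Day 2 (the plot of control shares by day). Ago1 and Clasp1 were called in both settings with opposite signs. Ccdc18 had a share of 61.4%, 67.8% and 60.3% in Day 0 control and 15.3%, 16.7% and 14.1% in Day 2 control (log2 ratio -2.07, adjusted p 1.16e-07 by limma). Its knockdown libraries at Day 2 had 30.1%, 23.8% and 25% with PCBP1 knockdown, all above control, and 19.0%, 16.9% and 25.1% with PCBP2 knockdown. Cdk2ap2 at 226 bases went from 67.8% ± 5.0 to 52.7% ± 9.6 (log2 ratio -0.89, adjusted p 0.00681 by limma), and the 10-base pair in the same transcripts from 24.5% ± 3.7 to 11.7% ± 4.3 (SD, n = 3 each).

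The tRNA methyltransferase genes Trmt6 and Trmt1 had upstream shares of 94.2% ± 0.7 and 94.6% ± 3.4 at Day 0 and 68.9% ± 15.9 and 75.2% ± 9.2 at Day 2 (SD, n = 3 each), and the authors' deposited PSI of these sites went from 94.7% to 84.3% and from 99.6% to 90%. In Ddx47, an RNA helicase gene, the share went from 90.4% ± 1.7 to 82.8% ± 1.2, while the authors' PSI was 99% and 99.3%. Upstream shares were higher at Day 2 in Wdr77 (8.1% ± 1.0 to 20% ± 2.3), of the PRMT5 complex, where the authors' PSI was 0.8% and 0.4%, Cluh (6.9% ± 0.9 to 19.4% ± 3.0; authors' PSI 0.8% and 3.6%), which binds mRNAs of mitochondrial proteins, and the lipid kinase gene Pikfyve (33.8% ± 4.6 to 50.4% ± 5.5). They were also higher in the ubiquitin ligase gene Rnf220 (62.1% ± 2.0 to 76.2% ± 3.7), Alg5 of N-glycosylation (6.6% ± 1.3 to 27.9% ± 16.5) and 2210016L21Rik (51.7% ± 6.7 to 89.7% ± 17.1), the last pair with totals of 1.03 and 1.35 TPM at Day 2. The authors' PSI in Day 0 control was 76.8% in Pikfyve, 25.3% in Rnf220, 5.2% in Alg5 and 85.6% in 2210016L21Rik. It was near the share in Alg5 only, and no PSI of these sites was listed at Day 2.

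**Figure D5:**
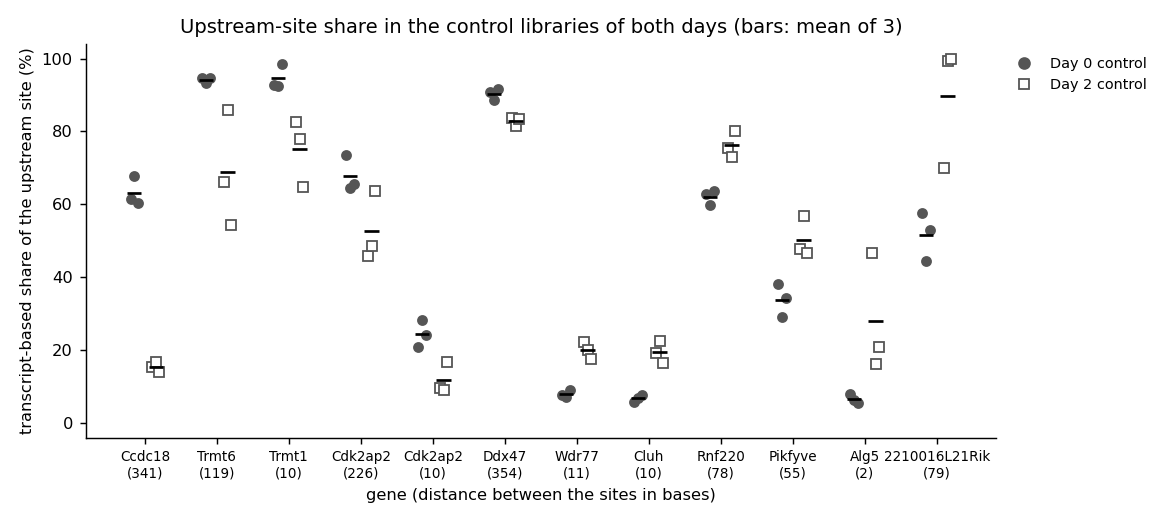
Transcript-based share of the upstream site (percent) in the control libraries of Day 0 (filled circles) and Day 2 (open squares) for the 12 variations called with both pseudocounts in the same direction; bars are means of 3. Ccdc18 has its Day 2 libraries between 14.1% and 16.7%, below its Day 0 libraries at 60.3% to 67.8%.

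The levels of the host genes were tested in the same libraries. By edgeR's quasi-likelihood test with Benjamini-Hochberg adjustment, 21 of 1537 host genes changed with PCBP1 knockdown at Day 0 (1 rose and 20 fell; 1.37%, background 0.88%) and 1 with PCBP2 knockdown at Day 0 (0.0651%, background 0.0229%), which was the targeted Pcbp2 itself, while 2 passed with DESeq2. At Day 2, 255 changed with PCBP1 knockdown (137 rose and 118 fell; 16.6%, background 13.1%) and 96 with PCBP2 knockdown (17 rose and 79 fell; 6.25%, background 4.7%), again with Pcbp2 among those that fell. Between the days 1411 changed in control (268 rose and 1143 fell; 91.8%, background 82.9%). With only the libraries of the groups compared, the counts for the knockdowns were 177, 1, 37 and 1. Single libraries also mattered: the Day 0 PCBP1 count was 7 without control SCR-1, 3 without SCR-2, 2 without hairpin SH1 and 7 without SH4, the Day 2 PCBP1 count 146 without control LUC-1, 144 without hairpin SH1 and 152 without SH4, and the Day 2 PCBP2 count 56 without hairpin SH3 and 39 without SH4.

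Of the named hosts, Taf2 rose with PCBP1 knockdown at Day 2 (log2 0.67, adjusted p 0.0005 by edgeR), as did Zbtb33 (0.65, adjusted p 0.00051) and Smarca2 (0.96, adjusted p 0.021). Kmt2d fell (log2 -0.43, adjusted p 0.0046 by edgeR), as did Med12 (-0.53, adjusted p 0.016), Pde4a (-0.73, adjusted p 0.005), Arap1 (-0.49, adjusted p 0.033), Lrrc56 (-0.63, adjusted p 0.026) and Eno3 (-0.45, adjusted p 0.046). With PCBP2 knockdown at Day 2, Pde4a fell (log2 -1.16, adjusted p 0.00098 by edgeR) and Clasrp fell (-0.60, adjusted p 0.03). With only the libraries of the groups compared, Taf2 (adjusted p 0.0468) and Zbtb33 (0.0498) passed and the other calls named here were lost, with adjusted p from 0.069 (Pde4a, PCBP1 knockdown) to 0.241 (Eno3); for Pde4a and Clasrp with PCBP2 knockdown it was 0.0819 and 0.218. Leaving out 1 library kept the calls for Taf2, Zbtb33 and Pde4a. The call was lost for Smarca2 without LUC-1 or SH3 (adjusted p up to 0.184), Kmt2d without SCR-2 (0.0545), Med12 without LUC-1 or SH3 (up to 0.131) and Lrrc56 without LUC-1 or SH3 (up to 0.186). It was also lost for Arap1 without SCR-2, SH1 or SH4 (up to 0.277), Eno3 without SCR-2, LUC-1, SH1 or SH4 (up to 0.193) and Clasrp without LUC-1, SH1 or SH4 (up to 0.0909). Ccdc18, Tmem170 and Serac1 did not pass in the Day 0 comparisons, with log2 values from -0.03 to 0.20.

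Genes of the splicing machinery were followed as lists. Of 35 tested genes for 5′ splice site recognition, 0 changed with either knockdown at Day 0 by edgeR, with list medians of 0.05 and 0.04 on the log2 scale beside medians of -0.01 and 0.01 over all genes. With PCBP1 knockdown at Day 2, 4 rose and 3 fell (median 0.06, all genes 0.02): Snrnp200 (log2 0.60, adjusted p 0.00023 by edgeR) and Prpf8 (0.51, adjusted p 0.003), of the U5 snRNP, rose, and the U1 protein gene Snrnp70 (-0.55, adjusted p 0.001) was among those that fell. With PCBP2 knockdown 0 rose and 4 fell (median -0.16, all genes -0.01), Lsm7 (-0.95), Tial1 (-0.41), Snrpb (-0.50) and Snrnp70 (-0.37). Between the days 7 rose and 26 fell, with a median of -1.62 beside -0.05 over all genes, among them Snrpd1 (log2 -2.87), Snrpf (-2.54) and Eftud2 (-2.52), while Ddx5 rose (1.68). Over all genes, edgeR called 0.88% with PCBP1 and 0.0229% with PCBP2 knockdown at Day 0. At Day 2 it called 13.1% and 4.7% of all genes, and between the days 82.9%.

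The SR and hnRNP list held 37 genes, among them splicing regulators of other kinds such as Mbnl1, Mbnl3, Celf1 and Celf2. By edgeR, 0 of the 37 changed with either knockdown at Day 0, where 0.88% and 0.0229% of all genes did. With PCBP1 knockdown at Day 2, 2 rose, both of them Mbnl genes (Mbnl3 by 0.65 and Mbnl1 by 0.55 on the log2 scale), and 1 fell (Srsf2, -0.31). With PCBP2 knockdown at Day 2, 1 fell (Hnrnpm, -0.44). The list medians at Day 2 were 0.03 and 0.04, and over all genes 13.1% and 4.7% were called. Between the days 12 rose and 17 fell, where 82.9% of all genes were called, with Ptbp1 (-2.18) and Hnrnpf (-1.61) falling and Ptbp3 (2.30) and Rbm39 (1.77) rising. Of 15 decay factors, 4 fell with PCBP1 knockdown at Day 2, led by Smg9 (-1.14) and Smg5 (-0.78), and 2 with PCBP2 knockdown (list medians -0.14 and -0.09); 0 changed at Day 0. Of 43 erythroid program genes, 22 fell with PCBP1 knockdown at Day 2 and 12 fell and 1 rose with PCBP2 knockdown, while 1 rose and 1 fell at Day 0 with PCBP1 knockdown and 0 changed with PCBP2 knockdown. The erythroid list medians at Day 2 were -0.34 and -0.29, beside 0.02 and -0.01 over all genes. Of 6 lymphoid markers, 3 passed the filter on low counts (Trdc, Il7r and Cd79a); 2 of these rose with PCBP1 knockdown and 1 with PCBP2 knockdown at Day 2, and 0 fell. Their summed level at Day 2 was 0.00123% to 0.00181% of counts in control, 0.00453% to 0.00792% with PCBP1 knockdown and 0.00228% to 0.00267% with PCBP2 knockdown, and their part in the list counts was not tested. In the PCBP family list, the targeted gene was the only 1 of 4 to pass in each knockdown.

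Genes of these lists hosted 11 of the 2032 variations, in 10 genes, counting the recognition, SR and hnRNP, PCBP and erythroid lists. Their less used sites had a mean PSI of at most 2.36% by the authors' deposited tables. A control PSI between 5% and 95% was listed for 1, Prpf40b, a U1-associated factor gene, whose unannotated site 2 bases upstream had 5.1% in Day 0 control, 1% with PCBP1 knockdown and 0.3% with PCBP2 knockdown. Pcbp2 itself had a 1-base pair with 0.15% at its less used site.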

How the data were processed

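RNA sequencing of 18 libraries was analysed from the authors' deposited files; per the submitters' processing notes, reads were aligned to GRCm38 with STAR 2.5.3a while Salmon 0.11.3 gave transcript levels. Each library has a table from the authors with estimated counts and TPM values of transcripts, and the authors deposited 4 tables that compare pooled control and knockdown groups by PSI, expected change and probability. The tool behind the 4 tables, and whether counting used strand, are not given in the sources used here. PSI values in the authors' tables are fractions by their range and are printed as percents.

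In the table's column for de novo junctions, a flag of 1 fell on an annotated junction of GENCODE M21 in 2191 of 2194 cases, so annotation was taken from GENCODE M21 and not from that column. Junction 1 of a listing was the most upstream site on either strand. In 2-site variations with an expected change of at least 0.01, both sites had the same sign in 210 of 272 (PCBP1 knockdown, Day 0), which shares that sum to 1 cannot have, so the authors' expected change was used to choose variations and for 1 count, and the PSI difference was described.

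Site shares were tested with limma 3.58.1 (trend) on log2 of the TPM ratio of a site to the other sites. To each side 0.5 TPM was added. The fit covered all 22832 junctions, of all variation types, with a mean total of at least 1 TPM. Their mean share was between 2% and 98%. Where totals are low, the added 0.5 TPM pulls the log2 ratio toward 0. Where the total differs between groups, it can also shift the ratio without a change of share, or reverse its sign. Ago1 had a log2 ratio of -1.82 between the days in control with 0.5 TPM and 2.57 with the proportional pseudocount. Estimated counts of the deposited Salmon tables were summed per gene, rounded and tested with edgeR 4.0.16 (quasi-likelihood) over 17500 genes. Both fits used all 18 libraries with 6 group means, and adjusted p-values under 0.05 were called. Of 111706 transcripts, 110403 matched the annotation. Simulated data with known changes were used to test both scripts.

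The members and gene lists were chosen with earlier results of these data known. Named were up to 6 variations with the largest expected change in each table (none reached a probability of 0.95), 8 by the PSI difference of the controls, 8 by the smallest p of the site share, any in a list gene with a control PSI between 5% and 95%, up to 4 genes per list by p, and the hosts; some that the rule names are not reported here. Alternatives were other pseudocounts, no filter, reads in place of TPM, DESeq2 1.42.0, leaving out libraries and a replicate block.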

Additional observations from a re-analysis of the deposited data

How the results depend on the processing

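The counts of called site shares between the days moved from 93 to 52 with a pseudocount of 0.1 TPM, both of 132 tested. They were 49 of 80 with at least 0.5 TPM required in every library and 16 of 80 with that filter and the proportional pseudocount together, both chosen after seeing the data. The count for PCBP1 knockdown at Day 2 moved from 0 to 1 (Mr1) with 0.1 TPM and with reads in place of TPM, and to 3 with the proportional pseudocount and its filter; leaving out libraries gave 0 to 1 at Day 0 with PCBP1 knockdown, the 1 being Rasal3 without the Day 0 PCBP1 hairpin SH3. Host gene counts for the 4 knockdown comparisons (21, 1, 255 and 96) were 56 and 2 at Day 0 without a filter, 58 and 2 at Day 0 and 186 for PCBP2 knockdown at Day 2 with DESeq2, and 177 for PCBP1 knockdown at Day 0, 37 for PCBP1 knockdown at Day 2 and 1 for PCBP2 knockdown at Day 2 with only the libraries compared. Leaving out 1 library in turn gave 2 to 17 for PCBP1 knockdown at Day 0, 144 to 340 for PCBP1 knockdown at Day 2 and 39 to 130 for PCBP2 knockdown at Day 2. The lowest came without the Day 0 PCBP1 hairpin SH1, without the Day 2 PCBP1 hairpin SH1 and without the Day 2 PCBP2 hairpin SH4. In the authors' deposited tables a probability of at least 0.50 gave 2, 2, 2 and 1 variations. The flag for an alternative 5′ site alone, with exon skipping, alternative 3′ sites and introns allowed, gave 37 of 53111 (0.0697%), 7 of 53657 (0.013%), 105 of 43340 (0.242%) and 38 of 42716 (0.089%) at a probability of at least 0.95. The median distance was 30 bases for all members and 51.5 with both sites annotated.

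The control hairpin as a replicate block changed the count between the days from 93 to 91 for site shares and from 1411 to 1406 for host genes. Deviations from the group means of the same hairpin on both days had correlations of 0.0284, 0.0339 and -0.0164 across 17500 genes, and those of the knockdown hairpins were 0.0126, 0.0281 and 0.0856 (PCBP1) and 0.0655, 0.124 and 0.1 (PCBP2), so no set had every pair over 0.1 and the numbers were not taken to pair the libraries; each PCBP2 hairpin library correlated best with its own number, a hint from the data only. With the hairpin as a replicate block, added after seeing the data, the tests of a knockdown effect differing between the days again called 0 variations, with smallest adjusted p-values of 0.501 and 0.77 by limma. Of all 22832 junctions, 0 were called in that fit too. The knockdown comparisons share no replicate number with control.

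Depth behind PSI is unknown.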
